A study of Mus musculus with 4 samples.

Results

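Interferon-stimulated genes with antiviral roles were examined as 1 group of 38 genes among the 22026 gene symbols in the deposited tables. The members were taken by symbol from a list chosen with earlier results of these data known. They were placed in 5 subgroups: IFIT (3 genes), OAS (6), RNA sensors (6), PARP (4) and other effectors (19). All 38 had an entry in each table and all 38 had a mean of at least 1 FPKM (fragment counts scaled to transcript length and library size) over the 4 libraries, the level below which genes were not tested. RNA came from mouse bone marrow derived macrophages, cultured for 3 days with a supernatant equivalent to 20 ng/ml of M-CSF, the growth factor of macrophages, from marrow of 8 week old C57BL/6 mice. The 2 libraries named WT came from wild-type controls, and the 2 named RBP-J KO from mice of the genotype Rbpj f/f;LysM cre, in which Cre recombinase made under the LysM promoter of myeloid cells deletes the floxed Rbpj gene. Whether the controls carried floxed alleles or Cre is not stated in the labels, nor whether animals were pooled. The labels name no virus and no interferon treatment. The comparison is of antiviral mRNA levels with and without RBP-J, the DNA-binding protein of Notch signalling, in such cultures.

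Type I interferons signal through the receptor Ifnar1/Ifnar2 and the kinases Jak1 and Tyk2 to a transcription factor complex that includes Stat2 and Irf9. This complex binds the interferon-stimulated response element (ISRE) in the promoters of antiviral genes. Macrophages hold a low tonic level of these mRNAs without infection, and the proteins detect viral RNA, degrade it, block its translation or stop viruses from entering and leaving the cell.

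Levels of a pair of libraries are given with WT first and RBP-J KO second, as one versus the other. Rbpj was at 355 versus 51.5 FPKM for replicate number 1 and 573 versus 77.0 FPKM for number 2, lower in both knockout libraries as labelled (limma log2 difference -2.82, SE 0.34; adjusted p 0.457, Benjamini-Hochberg). limma, described with the results, thus did not call the deleted gene either. Libraries of equal number are called pair 1 and pair 2 here; the labels do not say that they share a mouse, litter or day. The pairs differ in table layout (1 value per gene in pair 1, 1 per transcript in pair 2). They also differ in sex-linked genes: Ddx3y, on the Y chromosome, was at 193 versus 174 FPKM in pair 1 and listed at 0 in pair 2, and Xist the reverse, at 268 versus 289.9 FPKM in pair 2. The labels name no batch. Genotype differences are given inside each pair. The 8 macrophage markers summed to between 12556 and 19091 FPKM in all 4 libraries. In both pairs 2 of them (Fcgr1 and Mertk) were higher in RBP-J KO and 3 lower, where 25.1% and 34.1% of all genes were. Lyz2, the LysM gene that carries Cre in this mouse line, was at 218 versus 94.3 FPKM in pair 1 and 192 versus 115 in pair 2. Cd14 was at 1715 versus 764 FPKM and 1570 versus 800 FPKM, and Cd68 at 6146 versus 5821 FPKM and 6473 versus 5173 FPKM. Read depth is unknown, because the tables hold no counts. The labels name no individual mice, but by Ddx3y and Xist replicates 1 and 2 of each genotype came from different animals, of different sex. The spread behind a p-value here thus includes the animal, the sex and the handling of each library, which cannot be told apart.

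Promoters of the members were searched for the ISRE. RefSeq promoter windows on GRCm38.p6, reaching from 250 bases before to 50 bases after an annotated start, were matched by symbol for 28 of the 38 genes (33 windows); Mx1, Mx2, Oas2, Usp18, Dhx58, Rtp4, Zbp1, Parp9, Parp14 and Ifi27l2a had no entry. The ISRE core was searched on both strands as GAAA, any 2 bases, then GAAA. It was present in 14 of the 33 member windows (42.4%), in 14 genes, against 1131 of all 32851 windows (3.44%). At least 2 matches, which may overlap each other, were held by 8 member windows and by 0.225% of all windows. The bases before the start are printed for Isg15 and Ifit3, among the members furthest apart between the genotypes in both pairs, with ISRE matches in capitals.

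Isg15, chr4:156200819-156201068, minus strand: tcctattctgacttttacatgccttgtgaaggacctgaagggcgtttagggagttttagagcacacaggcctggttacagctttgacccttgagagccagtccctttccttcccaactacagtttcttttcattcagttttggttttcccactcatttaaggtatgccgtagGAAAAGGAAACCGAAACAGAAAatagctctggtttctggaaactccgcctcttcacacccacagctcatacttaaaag
Ifit3, chr19:34583279-34583528, plus strand: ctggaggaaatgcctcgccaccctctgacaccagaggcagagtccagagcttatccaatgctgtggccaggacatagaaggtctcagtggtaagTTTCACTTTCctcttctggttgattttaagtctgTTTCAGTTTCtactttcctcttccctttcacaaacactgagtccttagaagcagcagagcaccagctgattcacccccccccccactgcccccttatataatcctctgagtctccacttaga

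Isg15 has 3 overlapping matches between 78 and 57 bases before the start, and Ifit3 has 2 separate ones, written on the opposite strand, the nearer ending 113 bases before the start. Shorter stretches around the matches, each with up to 15 bases on either side, are shown for members with different genotype differences. Ifit1 has 2 matches on the opposite strand, as Ifit3 does. Oas1a and Oas1g are neighbouring copies whose windows share an unbroken run of 73 bases, including both matches. Oas3 and Rsad2 have 1 match each. Ifitm2, the single member that was lower in both pairs of libraries, also has 1.

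Ifit1, chr19:34640770-34640828, plus strand: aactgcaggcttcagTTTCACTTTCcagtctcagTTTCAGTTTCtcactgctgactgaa
Oas1a, chr5:120907526-120907560, minus strand: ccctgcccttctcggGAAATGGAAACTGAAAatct
Oas1g, chr5:120887614-120887646, minus strand: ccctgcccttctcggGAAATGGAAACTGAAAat
Oas3, chr5:120777710-120777749, minus strand: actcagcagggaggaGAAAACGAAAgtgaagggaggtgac
Rsad2, chr12:26456548-26456587, minus strand: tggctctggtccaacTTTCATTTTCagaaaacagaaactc
Ifitm2, chr7:140955983-140956022, minus strand: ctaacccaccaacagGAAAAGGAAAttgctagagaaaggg

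**Figure D1:**
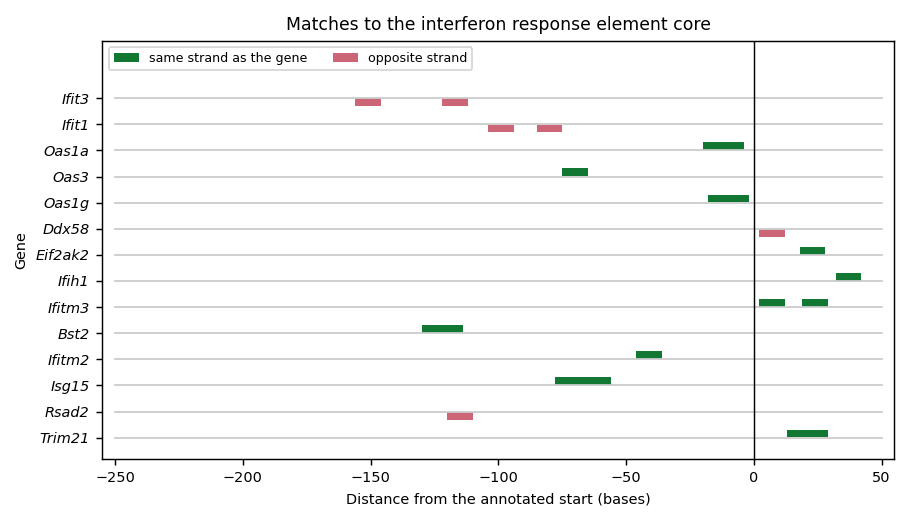
Positions of ISRE core matches in the promoter windows of the 14 members that hold one. The horizontal axis is the distance in bases from the annotated start (0), grey lines are the window, and the colour of a block gives its strand. Matches of Ifit1, Ifit3, Oas1a, Oas1g, Oas3, Bst2, Isg15, Rsad2 and Ifitm2 lie before the start and those of Ddx58, Eif2ak2, Ifih1, Ifitm3 and Trim21 after it.

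Whether members with and without the core differed was not tested. The 14 members with it had median log2 differences of 0.79 in pair 1 and 0.48 in pair 2, and the 14 without it 0.81 and 0.55. Members counted as without it lack only this exact spacing inside the windows searched. Among them, Xaf1 and Ifi44 hold copies of GAAA set closer together, in Ifi44 on the opposite strand. The ranges overlapped, from -0.25 to 1.87 with the core and from 0.09 to 2.28 without it in pair 1, and 12 of each 14 were higher in RBP-J KO in both pairs. The gamma-activated site, an element of interferon gamma signalling, searched as TTC, any 3 bases, then GAA (the same on both strands), was in 9 of 33 member windows (27.3%) and 8.30% of all windows, and overlapped an ISRE match in 2 of the member windows. The RBP-J core GTGGGAA, on either strand, was in 4 member windows (12.1%) and 6.38% of all windows. These were windows of Isg15, Eif2ak2, Trim25 and Adar; in Isg15 the match spans 105 to 99 bases before the start. A match describes letters and does not show binding.

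Most of the antiviral genes had more mRNA without RBP-J in both pairs, by a modest factor, but none passed the test across all genes. Of the 38 members, 33 were higher in RBP-J KO in both pairs, where 25.1% of all 11851 genes tested were. A further 4 had opposite signs and 1, Ifitm2, was lower in both, where 34.1% of all genes were. A difference of at least 1.5-fold upwards in both pairs was seen for 17 members, against 3.86% of all genes. Among the 8398 genes with a mean at or above that of the lowest member (Isg20, 27.0 FPKM) the shares were close to these, at 23.3% and 3.20%. The members were chosen with earlier results of these data known, so the shares describe the list and test nothing. The median member was higher by 1.73-fold in pair 1 and by 1.44-fold in pair 2 (log2 differences 0.79 and 0.53 on the log2(FPKM + 1) scale), while the median of all genes tested was -0.05 and -0.02.

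**Figure D2:**
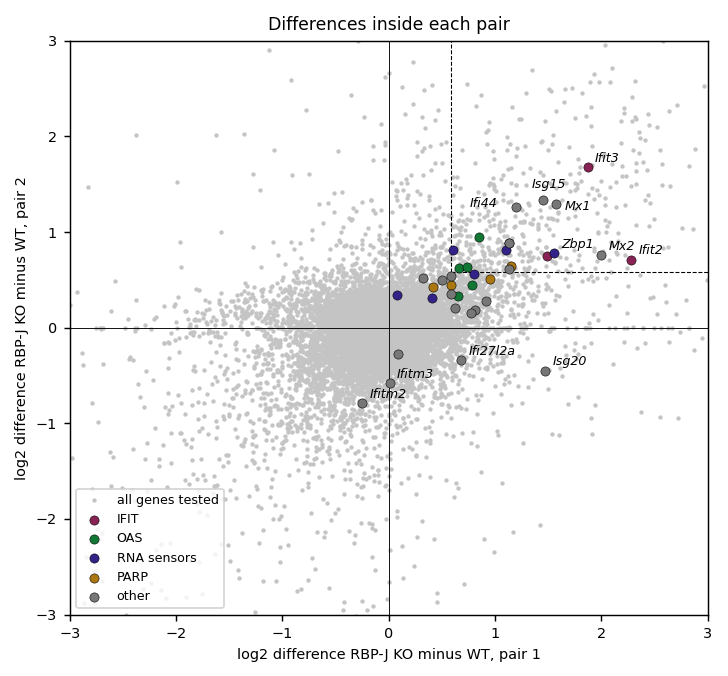
Log2 difference of FPKM + 1, RBP-J KO minus WT, in pair 1 (horizontal) and pair 2 (vertical) for all genes tested (grey) and the 38 members (coloured by subgroup); 103 of all genes lie beyond the axes. Dashed lines mark 1.5-fold in both pairs, and 17 members lie beyond them in the upper right, led by Ifit3.

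In limma, a linear model fitted across all genes with group as its only term, 0 members and 0% of all genes passed an adjusted p of 0.05 (Benjamini-Hochberg over all genes, two-sided). The adjusted p of every member was 0.999. At an unadjusted p under 0.05 there were 2 members, Isg15 and Mx1, both higher in RBP-J KO, where 2.19% of all genes were higher at that level (524 genes in either direction). This model leaves the gap between the pairs in its error. With a term for replicate number added, 0 genes passed the adjusted threshold. In that fit 28 members were higher at an unadjusted limma p under 0.05, against 6.20% of all genes. Over all libraries 35 members had a higher mean in RBP-J KO, against 42.5% of all genes, and the median log2 difference was 0.63. Both values changed when 1 library was left out: without RBP-J KO replicate 1 they were 26 members and 0.18, without WT replicate 2 they were 31 and 0.34, without WT replicate 1 they were 35 and 1.06, and without RBP-J KO replicate 2 they were 35 and 1.24. The share of all genes with a higher mean ran from 37.5% to 51.8% over these.

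Pair 1 stood above pair 2 in both genotypes. Members were higher in replicate 1 than in replicate 2 in both groups in 35 of 38 cases, against 44.0% of all genes. The median member was higher by 0.76 (log2) in WT replicate 1 than in WT replicate 2, and by 1.07 in RBP-J KO replicate 1 than in RBP-J KO replicate 2, beside the genotype differences of 0.79 and 0.53 inside the pairs. In 22 members the order from high to low was RBP-J KO 1, WT 1, RBP-J KO 2, WT 2, an order held by 10.2% of all genes. RBP-J KO replicate 2 lay below WT replicate 1 in 25 members, where 63.0% of all genes had that order, so this overlap is near the background. Both RBP-J KO libraries stood above both WT libraries for 11 members, where 11.7% of all genes did: Isg15, Mx1, Mx2, Oas1a, Oas1g, Oas2, Ifi35, Xaf1, Bst2, Zbp1 and Trim21. The genotype difference was larger in pair 1 than in pair 2 for 32 members, against 49.7% of all genes. Over the 38 members, which are not replicates and share libraries, the differences in pair 1 and pair 2 were correlated (Pearson 0.63, Spearman 0.64).

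**Figure D3:**
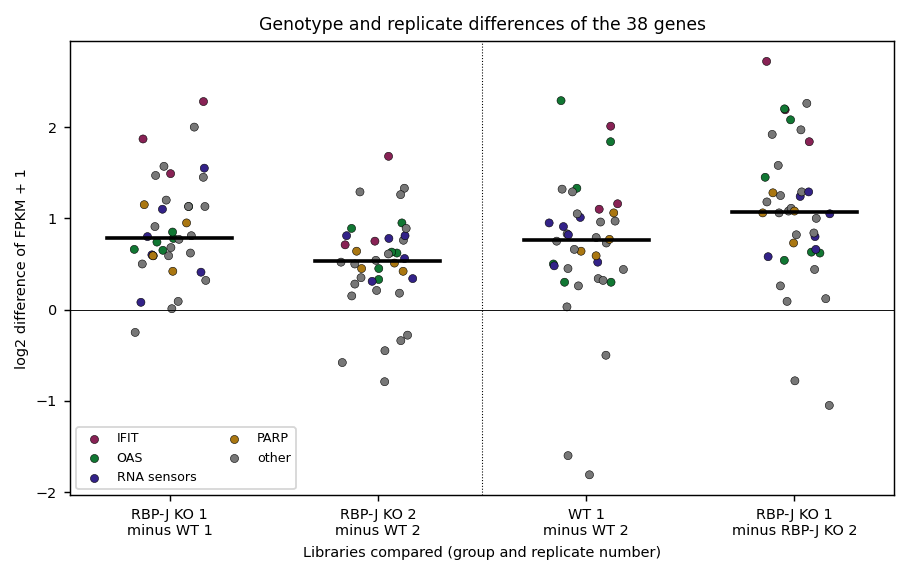
Log2 difference of FPKM + 1 for each of the 38 members (points, coloured by subgroup; horizontal scatter is for display only) between the libraries named below; bars are medians. The genotype differences inside the pairs (left, medians 0.79 and 0.53) lie beside differences between libraries of 1 genotype (right) with medians of 0.76 and 1.07.

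The IFIT subgroup had the largest median difference of the 5 in each pair (log2 1.87 and 0.75). IFIT proteins can bind viral RNA and hinder its translation. Ifit3 was at 404 versus 1478 FPKM in pair 1, and at 99.8 versus 323 FPKM in pair 2. It was 3.65-fold and 3.21-fold higher, yet RBP-J KO replicate 2 lay below WT replicate 1. Ifit2 was at 196 versus 955 FPKM in pair 1 and 87.5 versus 144 FPKM in pair 2, with a difference of 4.84-fold in the first and 1.63-fold in the second. Ifit1, which recognises caps without the methyl mark of host mRNA, was at 155 versus 438 FPKM and at 71.8 versus 121 FPKM. All 3 genes exceeded 1.5-fold in both pairs, where 3.86% of all genes did. In all 3 the groups overlapped, as they did for most genes. Of all 11851 genes, 1383 (11.7%) had both RBP-J KO libraries above both WT libraries, and 2154 had both below. The limma log2 difference was 1.78 for Ifit3, 1.49 for Ifit2 and 1.12 for Ifit1, with an SE of 0.73 for Ifit1 and a larger one for the other two. Without RBP-J KO replicate 1 these were 0.68, 0.13 and 0.20, and without RBP-J KO replicate 2 they were 2.87, 2.85 and 2.04. The subgroup's median, 1.49 over all libraries, was 0.20 without RBP-J KO replicate 1, where that of the RNA sensors was 0.23, so its place as the largest depended on that library.

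**Figure D4:**
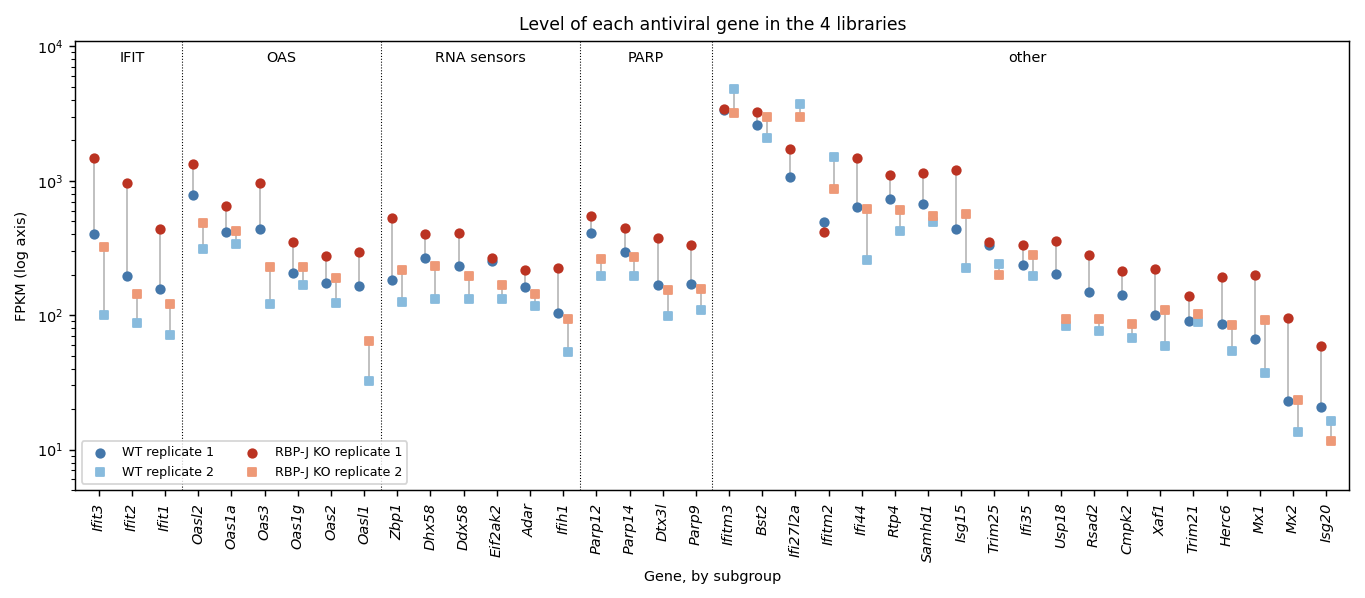
Level of each of the 38 members in each library, in FPKM on a log axis, grouped by subgroup and ordered by mean level. Circles are replicate 1, squares replicate 2, blue WT and red or orange RBP-J KO, and a grey line joins the libraries of a pair. RBP-J KO replicate 1 is the highest of the 4 for 35 members and WT replicate 2 the lowest for 33, against 29.2% and 28.7% of all genes.

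The OAS genes were higher in both pairs for all 6 members, 4 of them by at least 1.5-fold in both, against 25.1% and 3.86% of all genes. OAS enzymes sense double-stranded RNA and make short oligoadenylates that switch on the ribonuclease RNase L. Oas3, the family member with the longest chain, was at 439 versus 964 FPKM in pair 1 and 122 versus 227 FPKM in pair 2. Oas2 was at 174 versus 276 FPKM and at 123 versus 189 FPKM, so that its groups did not overlap. Oas1a, at 413 versus 647 FPKM and 335 versus 421 FPKM, and its neighbour Oas1g, at 206 versus 353 FPKM and 166 versus 228 FPKM, had the smallest differences of the 6 in pair 2 (1.25-fold and 1.37-fold). Near-identical copies can share reads, so the split between these genes is uncertain.

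The OAS-like genes carry ubiquitin-like domains in addition. Oasl1, which in the mouse limits the translation of Irf7, was at 164 versus 296 FPKM in pair 1 and 32.5 versus 63.8 FPKM in pair 2. Its WT libraries differed by 2.29 on the log2 scale, the largest gap between WT libraries among the members, and more than its genotype differences of 0.85 and 0.95. Oasl2 was at 789.8 versus 1321 FPKM and at 313 versus 484 FPKM. For Oas3, Oasl1 and Oasl2 the direction over all libraries turned without RBP-J KO replicate 1 (log2 differences -0.03, -0.20 and -0.04), and for Oasl1 also without WT replicate 2 (-0.25).

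All 6 sensors of foreign or abnormal RNA were higher in both pairs, where 25.1% of all genes were. Ifih1, Dhx58 and Zbp1 passed 1.5-fold in both, where 3.86% of all genes did. Zbp1, which binds left-handed nucleic acids and can trigger necroptosis, was at 181 versus 532 FPKM in pair 1 and 126 versus 217 FPKM in pair 2, with no overlap of the groups and a limma log2 difference of 1.16 (SE 0.49; 0.52 to 1.81 with 1 library left out). Among the cytosolic helicases, Ifih1 (MDA5) was at 104 versus 224 FPKM and at 53.3 versus 94.2 FPKM. Ddx58 (RIG-I) was at 232 versus 406 FPKM and at 132 versus 195 FPKM. The 2 signal through Mavs, and they differed by 2.15-fold and 1.74-fold in pair 1 and by 1.75-fold and 1.48-fold in pair 2.

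Dhx58 (LGP2), a helicase that modulates the other two, was at 265 versus 402 FPKM in pair 1 and at 131 versus 231 FPKM in pair 2. The remaining sensors differed least. Eif2ak2 (PKR), the kinase that halts translation on double-stranded RNA, was at 251 versus 266 FPKM in pair 1 and 133 versus 168 FPKM in pair 2. Adar, which edits adenosines in such RNA and so hides host duplexes from the sensors, was at 163 versus 216 FPKM and at 116 versus 144 FPKM. The direction of Eif2ak2 turned when either RBP-J KO replicate 1 or WT replicate 2 was left out (-0.12 and -0.25).

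The PARP subgroup was higher in both pairs for all 4 members, where 25.1% of all genes were. Its medians were 1.71-fold in pair 1 and 1.39-fold in pair 2. Parp9 and its partner Dtx3l, a ubiquitin ligase that works in a complex with it, are neighbouring genes. Parp9 was at 171 versus 331 FPKM in pair 1 and 109.6 versus 156 FPKM in pair 2, and Dtx3l at 168 versus 374 FPKM and at 98.0 versus 153 FPKM. Of the 4, only Dtx3l passed 1.5-fold in both pairs, where 3.86% of all genes did. Parp14, an ADP-ribosyltransferase with macrodomains, was at 297 versus 448 FPKM and at 197 versus 269 FPKM. Parp12, a zinc finger member that binds RNA, was at 409 versus 548 FPKM and at 196 versus 262 FPKM, and its direction turned when either RBP-J KO replicate 1 or WT replicate 2 was left out (-0.11 in each). The groups overlapped in all 4, as they did for most genes. Both RBP-J KO libraries stood above both WT libraries in 1383 of all 11851 genes (11.7%) and below them in 2154.

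Among the 19 other effectors, 14 were higher in both pairs, 6 of them by at least 1.5-fold, against 25.1% and 3.86% of all genes. Isg15, a ubiquitin-like protein that is attached to newly made proteins, was at 439 versus 1199 FPKM in pair 1 and 224 versus 566 FPKM in pair 2. Its groups did not overlap (2.73-fold and 2.52-fold; limma log2 difference 1.39, SE 0.51, 0.85 to 1.93 with 1 library left out). Herc6, the ligase that attaches it in the mouse, was 2.20-fold and 1.53-fold higher. Usp18, which removes it and restrains the interferon receptor, was at 203 versus 356 FPKM in pair 1 but at 82.4 versus 93.3 FPKM in pair 2, where the difference was 1.13-fold. The direction of Usp18 turned without RBP-J KO replicate 1 (-0.47) and also without WT replicate 2 (-0.15).

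Intact Mx genes encode dynamin-like GTPases that trap viral nucleocapsids. In pair 2 both Mx1 and Mx2 also had a non-coding entry. Whether the mice of this strain made functional Mx protein was not tested, so the levels describe mRNA only. Mx1 was at 67.0 versus 201 FPKM in pair 1 and 37.3 versus 92.2 FPKM in pair 2. With Isg15 it was 1 of the 2 members at an unadjusted limma p under 0.05 (log2 difference 1.43, SE 0.49, 0.87 to 1.98 with 1 library left out). Mx2 was at 23.0 versus 94.8 FPKM and at 13.4 versus 23.4 FPKM. RBP-J KO replicate 2 of Mx2 was barely above WT replicate 1, and the log2 difference was 1.38 (SE 0.73) in limma, 0.39 to 2.37 with 1 library left out. In pair 2 nearly all of the Mx2 value was a non-coding entry, at 13.1 and 22.7 FPKM, and the protein-coding entry was at 0.36 and 0.75 FPKM.

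When effectors were ranked by the smaller of their pair differences, Ifi44 and Xaf1 followed Isg15 and Mx1. Ifi44, a GTP-binding-like protein of the cytoplasm, was at 639 versus 1468 FPKM in pair 1 and 256 versus 615 FPKM in pair 2. Xaf1, which antagonises the apoptosis inhibitor XIAP, was at 99.5 versus 219.7 FPKM and at 58.6 versus 109 FPKM. Ifi44 was separated by pair, with RBP-J KO replicate 2 slightly below WT replicate 1, whereas the groups of Xaf1 did not overlap.

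Rsad2 (viperin), which makes a chain-terminating nucleotide, and Cmpk2, the nucleotide kinase encoded beside it, had small differences in pair 2. Rsad2 was at 149.6 versus 282 FPKM in pair 1 and 76.6 versus 93.4 FPKM in pair 2. Cmpk2 was at 141 versus 212 FPKM and 67.5 versus 86.2 FPKM. Without RBP-J KO replicate 1 both turned direction (-0.20 and -0.18), and Cmpk2 also without WT replicate 2 (-0.06). Bst2 (tetherin), which holds budding virus at the cell surface, was among the most abundant members, at 2593 versus 3229 FPKM and at 2075 versus 2969 FPKM. Its groups did not overlap although the difference was at most 1.43-fold.

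The remaining effectors that were higher in both pairs did not reach 1.5-fold in both. Rtp4, a chaperone of membrane receptors, had log2 differences of 0.59 and 0.54, and Ifi35, a leucine zipper protein, was 1.41-fold higher in both. Samhd1, which depletes the nucleotides needed for viral DNA synthesis, was 1.70-fold and 1.11-fold higher, and Trim21, a cytosolic antibody receptor and ubiquitin ligase, 1.53-fold and 1.15-fold. Samhd1 turned direction without RBP-J KO replicate 1 (-0.07).

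Not all antiviral genes were higher without RBP-J. Ifitm2 and Ifitm3, membrane proteins that block the fusion of entering viruses, did not share the direction of most members. Ifitm3, the most abundant member, was at 3385 versus 3407 FPKM in pair 1 and 4777 versus 3192 FPKM in pair 2. Ifitm2 was at 493 versus 415 FPKM and at 1494 versus 863 FPKM, and was thus lower in both pairs. Both genes were higher in WT replicate 2 than in WT replicate 1, opposite to most members. The 2 are close paralogs that can share reads, and the direction of Ifitm2 turned without RBP-J KO replicate 1 (0.01) and also without WT replicate 2 (0.28).

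Isg20, Ifi27l2a and Trim25, named because of their values, differed in opposite directions in the pairs. Isg20, an exonuclease that degrades viral RNA, was at 20.9 versus 59.4 FPKM in pair 1 and 16.3 versus 11.6 FPKM in pair 2. Ifi27l2a, a small protein of mitochondrial and nuclear membranes, was at 1072 versus 1719 FPKM and at 3751 versus 2957 FPKM, again with the higher level in pair 2. Trim25, the ubiquitin ligase of RIG-I signalling, was at 331 versus 351 FPKM and at 241 versus 199 FPKM. Whether the difference between pairs for these genes exceeds the spread of libraries could not be tested with 1 library per genotype in each pair.

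The pair 2 tables give transcripts, which allowed a look inside 8 members with several entries. For Mx1 the protein-coding entry was at 24.1 against 55.1 FPKM, and the non-coding one at 13.2 against 37.1 FPKM. The isoforms of Zbp1 were both higher in RBP-J KO, with isoform 1 at 38.7 and 86.6 FPKM and isoform 2 at 87.3 and 130.3 FPKM. Isg20 differed in this respect: one entry was at 9.72 and 9.57 FPKM, and the lower level in RBP-J KO lay in the other, at 6.55 and 2.05 FPKM. Of the 3 entries of Adar, 2 were higher in RBP-J KO (68.1 and 97.3 FPKM; 22.2 and 31.6 FPKM) and the third was lower. These values come from 1 library each and have no replicate.

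Upstream of the antiviral genes, a list of 60 interferon ligands, receptors, factors, adaptors and regulators was examined; 58 had an entry and 39 were tested. All 19 ligands with an entry, among them Ifnb1, the interferon alpha genes with an entry, Ifng and the lambda interferons Il28a and Il28b, were listed at 0 in all 4 libraries. The receptor chains were both higher in RBP-J KO in pair 1 and differed in direction in pair 2: Ifnar2 was at 569 versus 818 FPKM in pair 1 and 385 versus 515 FPKM in pair 2, and Ifnar1 at 303 versus 373 FPKM and at 214 versus 159.5 FPKM. Of the 39 tested genes 24 were higher and 4 lower in both pairs, against 25.1% and 34.1% of all genes. Irf7, Irf1 and Tlr9 were among those at least 1.5-fold higher in both, where 3.86% of all genes were. No gene of this list passed the adjusted limma threshold, and 1, Irf1, had an unadjusted p under 0.05 (smallest adjusted p 0.726, Benjamini-Hochberg).

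**Figure D5:**
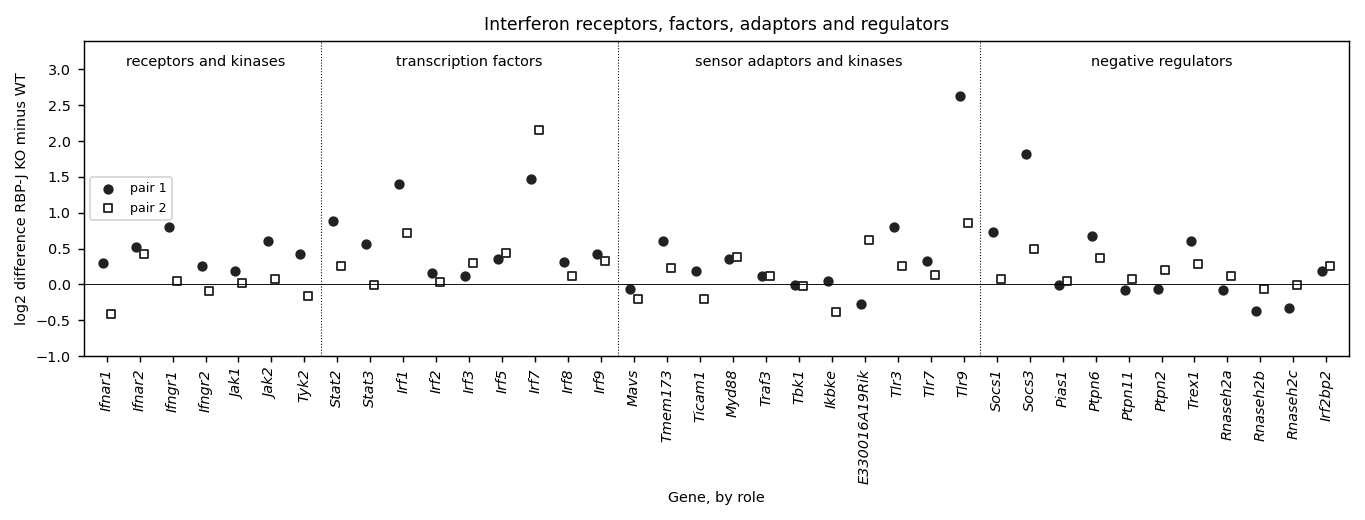
Log2 difference of FPKM + 1, RBP-J KO minus WT, in pair 1 (filled circles) and pair 2 (open squares) for 38 of the 39 tested upstream genes, ordered by role. Irf7 is more than 1 above 0 in both pairs, and receptors and kinases have a median of 0.02 in pair 2.

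Among the factors that carry the signal to the promoters, Irf7, the amplifier of interferon production, was at 1391 versus 3861 FPKM in pair 1 and 293 versus 1312 FPKM in pair 2. It ranked first in the list by the smaller of its pair differences, and its groups overlapped. Stat2 and Irf9, of the ISRE-binding complex, differed less than Irf7: Stat2 was 1.84-fold and 1.19-fold higher, and Irf9 1.34-fold and 1.25-fold. Irf1, a factor that binds the same element and is induced mainly by interferon gamma, was at 136 versus 361 FPKM and at 144 versus 239 FPKM, with no overlap.

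On the lower side, the 2 genes that ranked first were Mavs, the mitochondrial adaptor of the RNA helicases, at 121 versus 115 FPKM and 144 versus 125 FPKM, and Rnaseh2b, a subunit of the ribonuclease that removes ribonucleotides from DNA, at 165 versus 128 FPKM and 136 versus 131 FPKM. Neither reached 1.5-fold in either pair. The negative regulators as a whole had medians near 0 (-0.01 in pair 1 and 0.11 in pair 2, 11 genes). Of these, 5 were higher and 2 lower in both pairs, against 25.1% and 34.1% of all genes. Socs3, a feedback inhibitor of Jak kinases, was low but higher in both pairs with no overlap, at 3.78 versus 15.8 FPKM and 4.18 versus 6.28 FPKM. Its relative Socs1 was at 2.99 versus 5.63 FPKM and 4.16 versus 4.45 FPKM, also without overlap.

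Markers of other cells in the cultures were compared over the same libraries, where 25.1% of all genes were higher and 34.1% lower in both pairs. In bulk RNA, a different share of a cell type and a different amount of RNA per cell cannot be told apart. All 4 genes of Ly6C monocytes, immature cells of the same lineage, were higher in RBP-J KO in both pairs, and their sum was 385 and 1035 FPKM in pair 1 and 125 and 217 FPKM in pair 2, the same order of libraries as in 22 of the members. Neutrophil markers, of which 7 of 10 tested were higher in both pairs, summed to 7052 and 8348 FPKM in pair 1 and to 353 and 1136 FPKM in pair 2. These sums have the same order of libraries as the monocyte sums, an order held by 10.2% of all genes. The largest values in pair 1 were those of S100a8 (2473 versus 2971 FPKM) and S100a9 (2435 versus 3047 FPKM). Ngp (1209 versus 1176 FPKM), Ltf (291 versus 283 FPKM) and Mmp8 (108 versus 84.8 FPKM) were lower in RBP-J KO in pair 1 and so did not follow that order.

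Plasmacytoid dendritic cells, the strongest makers of type I interferon and cells that carry Bst2, had 3 of 6 tested markers higher and 1 lower in both pairs. The 8 markers summed to between 182 and 241 FPKM, most of it Tcf4 and Il3ra. Their defining gene Siglech was at 2.59 versus 22.4 FPKM in pair 1 and at 1.09 versus 1.31 FPKM in pair 2. Conventional dendritic cell markers summed to 27.9 and 118 FPKM in pair 1 and to 41.3 and 23.8 FPKM in pair 2, with Zbtb46 and Clec9a listed at 0 in both pair 2 libraries. Most of these sums was Itgax, at 24.1 versus 95.1 FPKM and 40.0 versus 22.4 FPKM. Of the 4 tested, 2 were higher in both pairs and 0 lower: Flt3, at 0.88 versus 12.7 FPKM and 0 versus 1.04 FPKM, and Xcr1, at 1.10 versus 2.87 FPKM and 0 versus 0.42 FPKM. Lymphocyte markers summed to at most 37.6 FPKM with Cd3d and Ncr1 at 0 in all libraries. Most of the RBP-J KO sums was the B cell gene Cd79b, at 9.90 versus 20.7 FPKM and 6.93 versus 25.9 FPKM with no overlap, the 1 of 4 tested that was higher in both pairs. Erythroid markers summed to at most 6.63 FPKM with Klf1 and Alas2 at 0. The part of these cells in the differences of the antiviral genes was not tested.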

How the data were processed

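The submitters' processing notes name TopHat, Cufflinks and mm9; their versions and settings are not given in the sources used. The deposited values were taken as FPKM, the unit of Cufflinks, because the file headers name none. Transcript values of pair 2 were summed per symbol, after restoring 25 symbols that had become dates. limma 3.58.1 in R 4.3.3 was fitted across all genes on log2(FPKM + 1) for 11851 genes (mean 1 FPKM or more), with a group term, limma's trend option and Benjamini-Hochberg adjustment (two-sided, threshold 0.05); this scale understates changes of low genes. The script was tested on simulated data. The members, lists and naming rule (all members accounted for; full values for 4 subgroups, fixed effectors and the 4 effectors with the largest smaller-of-both pair difference; 8 fixed upstream genes and 2 per direction) were chosen with earlier results of these data known, so no list test was made. Motifs were matched letter by letter in RefSeq promoter windows on GRCm38.p6, a later build than the files'. Plots used matplotlib 3.10.9 (Python 3.11.15). Alternatives covered pseudocount, filter, block, trend, scaling, transcript choice and each library left out. Results for some listed upstream and marker genes are not reported here.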

Additional observations from a re-analysis of the deposited data

How the results depend on the processing

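limma called 0 genes at an adjusted p of 0.05 in every alternative with a test, replicate block included. The numbers 33 and 17 of members higher in both pairs, and 1.5-fold higher in both, stayed within 1.5 times of themselves under every pseudocount, filter, scaling and transcript choice. Leaving out 1 library moved the members' median log2 difference (0.63) over 0.18 to 1.24 and that of the upstream list (0.22) over 0.07 to 0.38. The number of members with a higher mean in RBP-J KO (35) ranged from 26 to 35, an alternative chosen after seeing the data. At an unadjusted p under 0.05, 28 members were higher in the fit with the replicate block (2 without), against 6.20% of all genes, the smallest adjusted p of a member being 0.0642 (Ifit3); all genes at that level numbered 1557 (524 without the block). Same-numbered libraries deviated together over genes (r = 0.64), and the pairs differ in sex-linked genes and table layout. The labels state no pairing. Without the block, the number of members higher at that level was 7 after quantile normalization (2.59% of all genes), 4 after median scaling (2.57%), 1 with no filter (2.04%), 1 with no variance trend (2.20%) and 0 with the largest transcript (1.83%). Without RBP-J KO replicate 1 there were 307 such genes and without RBP-J KO replicate 2 there were 778, with 0 and 16 members among the higher ones (1.09% and 3.4% of all genes).

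Directions turned for 14 members. Leaving out 1 library gave log2 ranges of -0.62 to 1.64 for Isg20, -0.03 to 2.05 for Oas3, -0.25 to 2.05 for Oasl1, -0.04 to 1.41 for Oasl2, -0.47 to 1.45 for Usp18, -0.20 to 1.39 for Rsad2, -0.18 to 1.11 for Cmpk2, -0.11 to 0.95 for Parp12, -0.73 to 1.07 for Ifi27l2a, -0.25 to 0.67 for Eif2ak2, -0.07 to 0.99 for Samhd1, -0.51 to 0.31 for Trim25 and -1.32 to 0.28 for Ifitm2. Inside pair 2 alone Isg20 was at -0.45 and Ifi27l2a at -0.34, and inside pair 1 alone Trim25 was at 0.09 and Ifitm3 at 0.01. The other 24 members kept their direction in all alternatives run; the cause was not tested. Read depth, and with it counting error, is unknown.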

Other observations

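Relatives of the members that share a symbol stem but are not in the group were looked at after the members' values were known. In the PARP family, 4 of 9 such genes were higher in RBP-J KO in both pairs and 2 were lower, against 25.1% and 34.1% of all genes. Parp10 and Parp11 were at 83.1 versus 120.3 FPKM and at 65.8 versus 109 FPKM in pair 1, and at 66.0 versus 91.0 FPKM and at 50.1 versus 70.5 FPKM in pair 2. Parp8 was 1.96-fold and 1.70-fold higher. Parp1, the DNA repair enzyme, was at 334 versus 252 FPKM in pair 1 and 276 versus 271 FPKM in pair 2.

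The remaining genes of the IFITM family that were tested (Ifitm1, Ifitm6 and Ifitm7) were lower in RBP-J KO in pair 2, as were Ifitm2 and Ifitm3. Only 46.2% of all genes were higher in RBP-J KO in that pair, so this direction was common. Ifitm1 was at 108 versus 75.0 FPKM there and Ifitm6 at 110.2 versus 38.4 FPKM. In pair 1 the values were 84.3 versus 97.1 FPKM and 48.0 versus 37.2 FPKM, and Ifitm7 was nearly equal there, at 18.3 versus 18.4 FPKM. Of the OAS relatives, Oas1b was at 19.6 versus 49.4 FPKM in pair 1 and 18.4 versus 28.3 FPKM in pair 2, Oas1c went opposite ways in the pairs, and 4 lay below the level for testing. Among 36 tested TRIM relatives, 16 were higher and 9 lower in both pairs, against 25.1% and 34.1% of all genes. In each direction 1 reached 1.5-fold in both, where 3.86% of all genes did so upwards.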
